A study of Mus musculus with 33 samples.

Results

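The chemoattractant receptor and G protein signalling genes described here are those whose platform symbol begins with Gpr, P2rx, P2ry, S1pr, Ccr, Cxcr, Rgs, Gna, Gnb, Gng, Adrb or Ptger. The rule reads symbols and uses no measured value. The platform carried 117 such symbols. Of these, 85 had a value on at least 1 array, out of 9672 measured genes, and 32 had none. The 85 comprised 5 Ccr and 5 Cxcr chemokine receptors, 23 Gpr symbols, 9 purinergic receptors (P2r), 2 prostaglandin E receptors (Ptger), 2 sphingosine 1-phosphate receptors (S1pr), 16 regulators of G protein signalling (Rgs), 12 Gna, 6 Gnb and 5 Gng symbols. No symbol began with Adrb. The name rule also took in genes that are not receptors or subunits by function, such as Gnasas1, an antisense transcript of the Gnas locus, Gnb1l, a WD-repeat protein, and Gpr137b, Gpr155, Gpr180, Gpr89 and Gpr108, membrane proteins outside the classical receptor families. The members P2rx1, P2rx5 and P2rx6 encode ATP-gated ion channels, which do not couple to G proteins.

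Spleen cells of 2-month-old female BALB/c mice were cultured at 37 °C in RPMI medium with serum, and RNA was taken after 2, 4 or 8 h. Cells received CpG ODN, an equal mixture of the oligodeoxynucleotides 1555 and 1466 at 1 uM, control ODN, an equal mixture of 1612 and 1471 at 1 uM, or medium alone. Each group had 4 arrays at 2 h and at 4 h and 3 arrays at 8 h, 33 in all. On every array, spleen cell RNA was labelled with Cy5 and set against Universal Mouse Reference RNA, pooled from mouse tissues and cell types and labelled with Cy3. A level is the log2 ratio of the cells to that pool after centring each array on its median, a difference is between group means of such levels, and a difference of 1 is a factor of 2. The labels do not say whether repeats came from separate animals, so p-values measure the spread between these arrays, which may be technical.

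CpG ODN are short DNAs with unmethylated CpG motifs that Toll-like receptor 9 recognises in B cells and dendritic cells. Chemokine, lysophospholipid and nucleotide receptors sit in the cell membrane and, once bound, exchange GDP for GTP on a G protein alpha subunit, which then parts from the beta and gamma subunits. In lymphocytes, alpha subunits of the inhibitory class steer migration, while RGS proteins speed the hydrolysis of GTP and so end the signal. Spleen lymphocytes enter and leave the organ under the opposing pulls of chemokines held in its compartments and of sphingosine 1-phosphate in blood.

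The table gives between 7908 and 11129 probes with a value per array, and pairs of arrays correlated at 0.664 to 0.961 (Pearson, across probes). Of the 85 members, 35 were measured on all 33 arrays and all 85 could be tested at 8 h. The labelled cell source was checked at 8 h with marker lists, as sums of levels over the markers measured on all 9 arrays. The 12 B cell markers summed to between 14.85 and 24.27 over these arrays and the 8 T cell markers to between 8.63 and 16.94, while 11 markers of other tissues in the reference pool summed to between -21.15 and -8.81. Cd4, which helps define helper T cells, had no values. Array weights were lowest for medium 8 h replicate 2 (0.412), which stood apart for several members below.

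CpG ODN changed no member past the test at 2 h or 4 h and changed a minority at 8 h. A gene was called at a limma adjusted p below 0.05 over all genes tested. Against control ODN, 0 of 85 members were called at 2 h, with 3 at an unadjusted p below 0.05, where 0.0430% of all genes were called. At 4 h 0 of 85 were called, with 5 at an unadjusted p below 0.05, against 0.384% of all genes. At 8 h 11 of 85 members were called (12.9%), against 10.0% of all 9494 genes tested, so the share lay near the background. Of the 11, 3 were higher and 8 lower with CpG ODN, where 4.55% of all genes were higher and 5.45% lower. The share of members with a positive difference was 24.7%, beside 38.7% of all genes, and with quantile normalization 31 of the 85 were positive in place of 21. The median difference at 8 h was -0.24 over the members and -0.12 over all genes.

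Against medium, 0 of 84 members were called at 2 h, with 11 at an unadjusted p below 0.05 (0.0420% of all genes called), and 0 of 85 at 4 h, with 5 at an unadjusted p below 0.05 (0.218% of all genes called, 0.0104% lower). At 8 h 13 of 85 were called (15.3%), 3 higher and 10 lower, against 11.8% of all genes, 5.66% higher and 6.11% lower. With quantile normalization in place of median centring, the calls against medium were 3 higher and 6 lower, without a share of all genes for that setting. Both comparisons use the same CpG ODN arrays. The lists had 9 members in common, which is 81.8% of the 11 and 69.2% of the 13, and together they held 15. The same overlap over all genes was not counted, so whether this one is particular to the members is not known. Higher against both were Gpr31b, Gpr65 and P2ry14, and lower against both were Rgs2, Gpr137b, Rgs11, P2ry10, Rgs14 and Ccr4. S1pr1 and Cxcr4 were called against control ODN alone, and Gpr180, Gpr155, Gpr3 and Rgs18 against medium alone, without a test of the difference between the comparisons. The limma test of control ODN against medium called 0 members at 2, 4 and 8 h, where 0% of all genes were called. Unadjusted p-values under 0.05 numbered 2, 4 and 4 at these times.

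**Figure D1:**
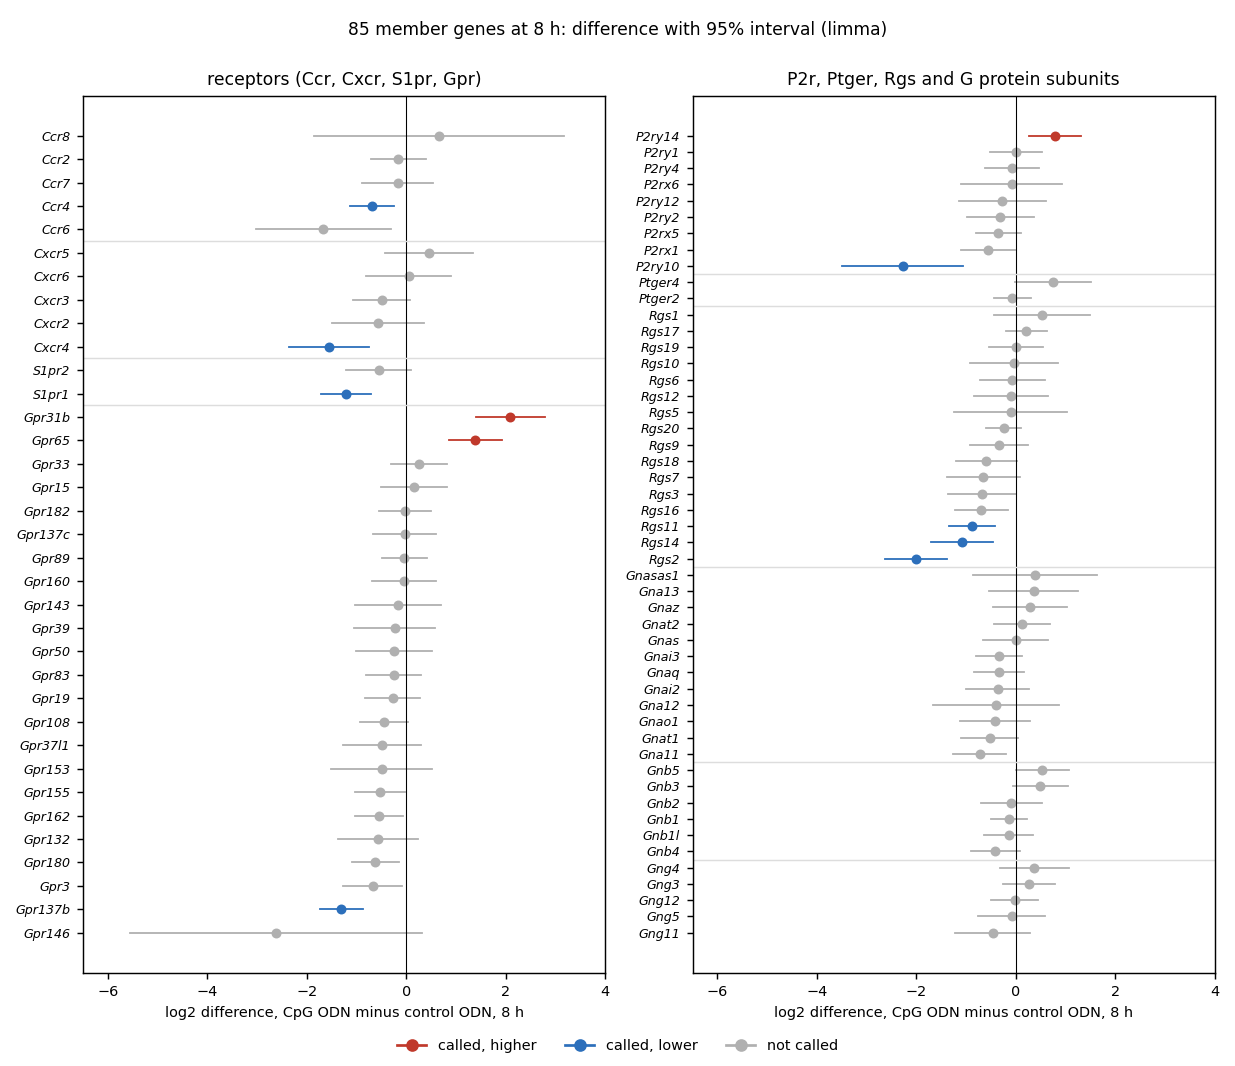
Difference in log2 ratio, CpG ODN minus control ODN at 8 h, for each of the 85 members (points) with its 95% interval from limma (lines), by family. Red and blue mark called members, 3 higher and 8 lower, and grey marks members not called, of which Gpr146 and Ccr8 have the widest intervals.

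Start-site upstream sequence from RefSeq (GRCm38.p6, strain C57BL/6J, not the BALB/c of these cells) was found for 10 of the 15 members called at 8 h in either comparison, in 14 windows of 250 bases ending just before an annotated start. Each window was searched on both strands for GAAANNGAA, a core of the interferon-stimulated response element, GGANNTTCC, a core of NF-kB sites, TGANTCA, the core of AP-1 sites, and TGACGTCA, the cyclic AMP response element. TGANTCA was present in 4 of the 14 windows, which belong to Ccr4, P2ry10 and P2ry14, and in 6.75% of 32851 windows of all genes. P2ry14 has 4 of the 14 windows and P2ry10 has 2. GGANNTTCC was present in 1 of the 14, the fourth window of P2ry14, and in 3.59% of all windows. GAAANNGAA and TGACGTCA were in 0 of the 14 and in 7.13% and 1.55% of all windows. No window held matches to more than 1 motif. A match is a run of letters and not a site shown to be bound. The windows below are those of Rgs2 and Gpr65, a fall and a rise called at 8 h, and of the 3 members with a TGANTCA match, which stands in capitals.
Rgs2 (chr1:144004150-144004399, minus strand): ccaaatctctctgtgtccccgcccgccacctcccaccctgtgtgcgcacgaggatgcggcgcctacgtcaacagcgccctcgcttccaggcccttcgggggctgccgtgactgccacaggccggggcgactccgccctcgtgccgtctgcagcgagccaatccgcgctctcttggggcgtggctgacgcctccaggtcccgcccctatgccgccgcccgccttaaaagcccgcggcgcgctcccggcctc
Gpr65 (chr12:98268385-98268634, plus strand): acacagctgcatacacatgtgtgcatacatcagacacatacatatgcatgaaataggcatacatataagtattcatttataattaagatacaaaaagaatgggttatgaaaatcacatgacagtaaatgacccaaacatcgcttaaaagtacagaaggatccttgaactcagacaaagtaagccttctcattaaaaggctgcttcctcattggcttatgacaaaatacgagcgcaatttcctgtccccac
Ccr4 (chr9:114496545-114496794, minus strand): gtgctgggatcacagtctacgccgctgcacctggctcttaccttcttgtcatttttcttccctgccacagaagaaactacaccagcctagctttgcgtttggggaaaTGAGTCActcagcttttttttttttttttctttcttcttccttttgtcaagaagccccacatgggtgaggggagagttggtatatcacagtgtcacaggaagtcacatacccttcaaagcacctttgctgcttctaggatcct
P2ry10 (chrX:107088242-107088491, plus strand): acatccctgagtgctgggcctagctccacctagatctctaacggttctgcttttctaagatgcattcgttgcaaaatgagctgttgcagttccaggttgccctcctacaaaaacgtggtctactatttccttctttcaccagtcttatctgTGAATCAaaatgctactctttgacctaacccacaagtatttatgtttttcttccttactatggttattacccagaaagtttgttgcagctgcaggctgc
P2ry14 (chr3:59153493-59153742, minus strand): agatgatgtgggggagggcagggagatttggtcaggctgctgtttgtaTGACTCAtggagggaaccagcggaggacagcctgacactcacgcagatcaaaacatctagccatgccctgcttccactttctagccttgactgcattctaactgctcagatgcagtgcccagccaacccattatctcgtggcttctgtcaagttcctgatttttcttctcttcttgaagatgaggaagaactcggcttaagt
In the windows shown the match begins at position -143 from the start in Ccr4, -99 in P2ry10 and -202 in P2ry14, and a second window of P2ry14, not shown, holds another at -144. Of these 3 genes P2ry14 was higher and Ccr4 and P2ry10 were lower with CpG ODN at 8 h.

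Among chemokine receptors, Cxcr4 and Ccr4 fell with CpG ODN at 8 h against control ODN, and the other 8 of 10 measured were not called. Cxcr4, the receptor for Cxcl12 that retains lymphocytes in bone marrow and lymphoid tissue, had levels of 3.44, 2.15 and 3.05 with CpG ODN at 8 h, against 4.66, 4.22 and 4.43 with control ODN and 4.14, 2.64 and 4.53 with medium. All CpG ODN arrays lay below all control ODN arrays, while medium replicate 2 lay within the CpG ODN range. The difference was -1.55 ± 0.39 (SE, n = 3 against 3, limma adjusted p = 0.0101) against control ODN and -0.89 ± 0.39 (adjusted p = 0.152) against medium. The first call was lost without CpG ODN replicate 2 (-1.19, adjusted p = 0.0909), and against medium a call was gained without medium replicate 2 (-1.46, adjusted p = 0.0143). Without medium replicate 3 the limma adjusted p against medium was 0.549.

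Ccr4, a receptor for Ccl17 and Ccl22 on helper and regulatory T cells, stood at 0.85, 0.80 and 0.88 with CpG ODN at 8 h, against 1.58, 1.58 and 1.43 with control ODN and 1.5, 1.55 and 1.67 with medium. No other array at 8 h was as low. The difference was -0.69 ± 0.21 against control ODN (limma adjusted p = 0.0363) and -0.73 ± 0.21 against medium (adjusted p = 0.0240). Leaving out any 1 of the 6 arrays ended the first call (adjusted p of 0.0577 to 0.106), and leaving out any CpG ODN array or medium replicate 2 or 3 ended the second (adjusted p of 0.0521 to 0.0783). Quantile normalization ended both as well (-0.47, adjusted p = 0.292, and -0.54, adjusted p = 0.173). At 2 h Ccr4 lay between -0.05 and 0.61 in all groups. It was higher at 8 h than at 2 h with control ODN and with medium, as described below for culture time, and by 0.41 ± 0.20 with CpG ODN without a call (adjusted p = 0.165).

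Ccr7 and Cxcr5, receptors that guide cells into splenic compartments, were not called at 8 h. Ccr7, which draws cells towards T cell zones, was at 5.29, 5.35 and 5.99 with CpG ODN and 5.98, 5.32 and 5.85 with control ODN, and the groups overlapped (difference -0.17 ± 0.35, limma adjusted p = 0.860, 95% interval -0.88 to 0.54). Cxcr5, which draws B cells towards follicles, differed by 0.46 ± 0.43 at 8 h (adjusted p = 0.613). At 4 h Cxcr5 was at 3.77, 3.68, 5.02 and 4.31 with CpG ODN, against 3.20, 3.07, 2.11 and 3.37 with control ODN and 3.66, 3.17, 2.82 and 3.58 with medium. All others at 4 h were lower than those with CpG ODN, but the differences of 1.26 ± 0.37 and 0.89 ± 0.37 did not pass over all genes (adjusted p = 0.346 and 0.913). Ccr7 and Cxcr5 are named after their values were seen.

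Ccr6, the receptor for Ccl20 on B cells and some T cells, was measured on few arrays at 8 h, at 1.05 and 0.45 with CpG ODN, 2.58 and 2.26 with control ODN and -0.14 and 0.23 with medium. CpG ODN lay below control ODN and above medium, and neither difference was called (-1.67 ± 0.66, limma adjusted p = 0.119, and 0.70 ± 0.66, adjusted p = 0.570). Cxcr3, the receptor for Cxcl9, Cxcl10 and Cxcl11 on activated T and NK cells, was at 1.39, 1.38 and 1.75 with CpG ODN, against 1.83, 1.82 and 2.35 with control ODN and 2.28, 1.90 and 2.56 with medium. All 3 with CpG ODN lay below the others at 8 h, yet the differences of -0.49 ± 0.28 and -0.74 ± 0.28 were not called (adjusted p = 0.312 and 0.0897). With array weights that from medium was called (adjusted p = 0.0456), while with quantile normalization it was not (adjusted p = 0.313). Over the 10 chemokine receptors the differences from control ODN at 8 h ran from -1.67 to 0.66, with a median of -0.33.

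**Figure D2:**
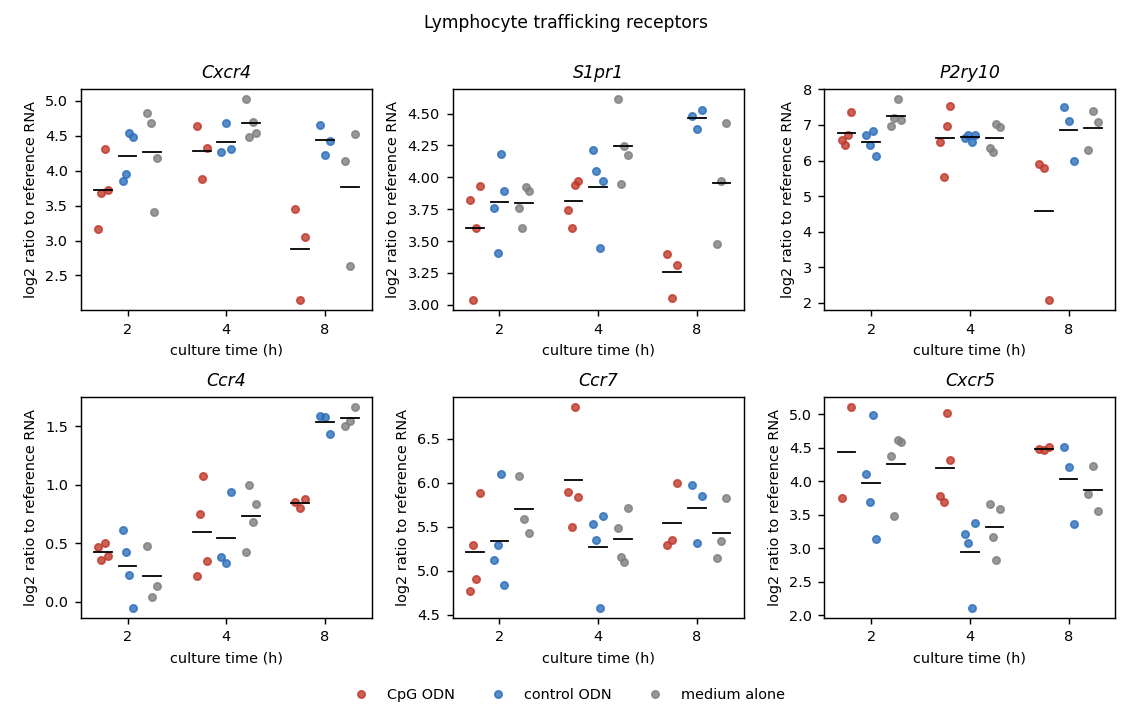
Log2 ratio to the reference RNA of 6 trafficking receptors by culture time (h), with a point per array and a bar at the group mean, CpG ODN left, control ODN middle, medium alone right. At 8 h Cxcr4, S1pr1, P2ry10 and Ccr4 with CpG ODN lie below control ODN, P2ry10 with 1 array at 2.08 far below the rest, while Ccr7 and Cxcr5 overlap.

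S1pr1, the sphingosine 1-phosphate receptor that lymphocytes need to leave lymphoid organs, was lower with CpG ODN at 8 h. Its levels were 3.40, 3.06 and 3.31 with CpG ODN, against 4.48, 4.38 and 4.53 with control ODN and 3.48, 3.97 and 4.42 with medium. The CpG ODN arrays lay below all others, and control ODN and medium overlapped. The difference was -1.20 ± 0.24 against control ODN (limma adjusted p = 1.12e-03) and -0.70 ± 0.24 against medium, short of a call (adjusted p = 0.0595). The difference from medium was called in 6 alternatives, among them quantile normalization (adjusted p = 0.0309), array weights (adjusted p = 0.0254) and without medium replicate 1 (-0.94, adjusted p = 0.0122). In 10 of the 16 alternatives it stayed uncalled, with the highest limma adjusted p, 0.314, without medium replicate 3. At 2 h and 4 h the S1pr1 groups overlapped. S1pr2, which restrains migration, was at -1.99, -1.55 and -1.31 with CpG ODN and -1.48, -1.10 and -0.61 with control ODN at 8 h, overlapping groups with a difference of -0.55 ± 0.32 (adjusted p = 0.324).

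P2ry10, a lymphocyte receptor for lysophosphatidylserine, was at 5.90, 5.80 and 2.08 with CpG ODN at 8 h, against 7.49, 7.12 and 6.0 with control ODN and 6.28, 7.39 and 7.08 with medium. All CpG ODN arrays were lowest, but replicate 3 set most of the size of the fall. The differences were -2.27 ± 0.59 against control ODN (limma adjusted p = 0.0120) and -2.32 ± 0.59 against medium (adjusted p = 8.41e-03). Without CpG ODN replicate 3 they were -1.02 (adjusted p = 0.158) and -1.07 (adjusted p = 0.121), and without control ODN replicate 1 and medium replicate 2 they missed the threshold (adjusted p = 0.0581 and 0.0513). P2ry14, a receptor for UDP-sugars, was higher with CpG ODN at 8 h, at 0.73, 0.93 and 0.56 against 0.08, -0.20 and -0.05 with control ODN and -0.15, -0.15 and 0.01 with medium. The groups did not overlap, and the differences were 0.79 ± 0.25 (adjusted p = 0.0433) and 0.83 ± 0.25 (adjusted p = 0.0297). The P2ry14 call against control ODN was lost without any 1 of the 6 arrays (adjusted p of 0.0552 to 0.164), and that against medium without CpG ODN replicate 1 or 2 or medium replicate 1 or 2 (adjusted p of 0.0547 to 0.124). The other 7 purinergic receptors measured were not called.

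Ptger4 and Ptger2, receptors for prostaglandin E2 that raise cyclic AMP, were not called at 8 h. Ptger4 was at 0.31, 0.44 and 0.64 with CpG ODN, against -0.17, 0.07 and -0.77 with control ODN and -0.30, 0.06 and -0.73 with medium. CpG ODN gave the highest levels, with differences of 0.75 ± 0.37 and 0.79 ± 0.37 (limma adjusted p = 0.233 and 0.187). Ptger2 differed from control ODN by -0.07 ± 0.18 with overlapping groups (adjusted p = 0.885, 95% interval -0.44 to 0.30).

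Of the 23 Gpr symbols, Gpr31b and Gpr65 were higher and Gpr137b was lower with CpG ODN at 8 h against both controls. Gpr31b is the mouse counterpart of GPR31, described in human cells as a receptor for a hydroxylated arachidonic acid product. Its levels at 8 h were 2.16, 1.96 and 2.24 with CpG ODN, against -0.17, 0.15 and 0.10 with control ODN and -0.14, 0.01 and 0.32 with medium. The groups were far apart, with differences of 2.09 ± 0.34 (limma adjusted p = 1.16e-04) and 2.06 ± 0.34 (adjusted p = 1.31e-04). At 4 h Gpr31b was at 0.32, 0.64, 1.61 and 1.51 with CpG ODN, against 0.05, -0.08, -0.55 and -0.04 with control ODN and 0.68, 0.11, -0.26 and 0.02 with medium. CpG ODN lay above control ODN on every 4 h array, though not above medium replicate 1, and the difference of 1.17 ± 0.29 from control ODN was not called (adjusted p = 0.105). The mouse genome holds near-identical copies of this gene, and the probe may read them too.

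Gpr65, a proton-sensing receptor of lymphoid and myeloid cells that raises cyclic AMP, was at 2.97, 2.60 and 2.95 with CpG ODN at 8 h, against 1.51, 1.65 and 1.19 with control ODN and 1.51, 2.35 and 1.87 with medium. The CpG ODN arrays were the highest of the 9. The differences were 1.39 ± 0.26 (limma adjusted p = 4.48e-04) and 0.93 ± 0.26 (adjusted p = 0.0163). The call against medium was lost without CpG ODN replicate 1 or 3 or medium replicate 1 (adjusted p of 0.0583, 0.0588 and 0.0757).

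Gpr137b, a lysosomal membrane protein, was at -0.67, -1.09 and -1.33 with CpG ODN at 8 h, against 0.5, 0.27 and 0.05 with control ODN and 0.28, 0.16 and 0.08 with medium. All CpG ODN arrays lay below 0 and all others above it. The differences were -1.30 ± 0.22 (limma adjusted p = 8.43e-05) and -1.20 ± 0.22 (adjusted p = 2.15e-04). At 2 h and 4 h its levels ran from 0.07 to 1.13 over all groups.

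Against medium alone the Gpr calls included Gpr180, Gpr155 and Gpr3, a receptor that raises cyclic AMP without a known need for a ligand. Gpr180 was at 0.07, -0.43 and -0.38 with CpG ODN and 1.07, 0.56 and 0.14 with medium, Gpr155 at -0.22, -0.32 and -0.26 and at 0.19, 1.06 and 0.47, and Gpr3 at 0.35, 0.11 and 0.71 and at 0.97, 1.42 and 1.66. In each gene all CpG ODN arrays lay below all medium arrays. Gpr180 differed by -0.84 ± 0.23 (limma adjusted p = 0.0162), Gpr155, a lysosomal protein, by -0.84 ± 0.25 (adjusted p = 0.0237) and Gpr3 by -0.96 ± 0.29 (adjusted p = 0.0277). Against control ODN the differences of Gpr180, Gpr155 and Gpr3 were -0.62 ± 0.23, -0.53 ± 0.25 and -0.68 ± 0.29, with overlapping groups and no call (adjusted p = 0.0932, 0.200 and 0.154). The call of Gpr180 against medium was lost without CpG ODN replicate 2 or 3 or medium replicate 1 (adjusted p of 0.0636 to 0.0965) and that of Gpr155 without CpG ODN replicate 2 or 3 or medium replicate 2 (adjusted p of 0.0576 to 0.172). That of Gpr3 was lost without CpG ODN replicate 1 or 2 or medium replicate 2 or 3 (adjusted p of 0.0673 to 0.131). The remaining 17 Gpr symbols were called in neither comparison.

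The RGS genes called at 8 h were all lower with CpG ODN, 3 of 16 against control ODN and 4 of 16 against medium, where 5.45% and 6.11% of all genes were called lower. Rgs2, which acts on alpha subunits of the phospholipase-activating class, had the smallest adjusted p of all members in both comparisons. It was at 1.16, 0.03 and 0.45 with CpG ODN at 8 h, against 2.62, 2.68 and 2.38 with control ODN and 2.35, 3.22 and 2.78 with medium. The CpG ODN arrays lay more than 1 unit below all others, with differences of -2.01 ± 0.31 (limma adjusted p = 2.61e-05) and -2.24 ± 0.31 (adjusted p = 4.09e-06). At 4 h Rgs2 was at 2.53, 1.58, 3.00 and 2.75 with CpG ODN, against 3.21, 3.07, 2.78 and 3.60 with control ODN. The groups overlapped at 4 h, and the difference of -0.70 ± 0.27 was not called (adjusted p = 1.00).

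Rgs11, of the RGS subfamily that pairs with Gnb5, was at -0.26, 0.00 and -0.02 with CpG ODN at 8 h, against 0.52, 0.92 and 0.95 with control ODN and 0.65, 1.27 and 1.17 with medium. CpG ODN gave the lowest levels, with differences of -0.88 ± 0.23 (limma adjusted p = 0.0110) and -1.12 ± 0.23 (adjusted p = 1.10e-03). Rgs14, which binds inhibitory-class alpha subunits and Ras-family proteins, was at 0.74 and 0.10 with CpG ODN at 8 h, against 1.49, 1.30 and 1.73 with control ODN and 1.87 and 1.09 with medium. The groups did not overlap over the arrays with a value, and the differences were -1.09 ± 0.31 (adjusted p = 0.0212) and -1.06 ± 0.33 (adjusted p = 0.0378). The Rgs14 call against control ODN was lost without control ODN replicate 3 (adjusted p = 0.0753), with quantile normalization (adjusted p = 0.111) and with the compared groups alone (adjusted p = 0.0627). That against medium was lost in 4 alternatives, among them array weights (adjusted p = 0.0793) and the compared groups alone (adjusted p = 0.207), and with values on 2 CpG ODN arrays neither comparison could be tested without either of them. Rgs18, an RGS protein of platelets and other blood cells, was at 1.42, 0.85 and 1.24 with CpG ODN and 1.70, 2.00 and 2.52 with medium, without overlap, and was called against medium alone (-0.90 ± 0.30, adjusted p = 0.0467), and lost that call without CpG ODN replicate 2 or 3 or medium replicate 2 or 3 (adjusted p of 0.0828 to 0.227). Against control ODN it differed by -0.60 ± 0.30 (adjusted p = 0.236).

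Rgs1, which dampens chemokine responses of B cells, was not called at 8 h, at 3.69, 3.31 and 3.53 with CpG ODN and 3.33, 2.85 and 2.76 with control ODN (0.53 ± 0.47, limma adjusted p = 0.582), and is named after its values were seen. Over the 16 RGS genes the difference from control ODN ran from -2.01 to 0.53, with a median of -0.29.

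With the settings used throughout, no G protein subunit symbol was called for a treatment difference at 8 h. Of 23 symbols of Gna, Gnb and Gng, 0 were called by limma against either control, and an unadjusted p under 0.05 was reached by 1 Gna and 1 Gnb symbol against control ODN and by 2 Gna and 2 Gng symbols against medium. The differences from control ODN ran from -0.73 to 0.53, with a median of -0.09. Gna11, an alpha subunit that activates phospholipase C, came nearest, at -1.59, -1.48 and -1.22 with CpG ODN, against -1.19, -0.52 and -0.39 with control ODN and -0.77, -1.07 and -0.22 with medium. The lowest 3 of the 9 arrays were those with CpG ODN, yet the differences of -0.73 ± 0.26 and -0.74 ± 0.26 did not pass (limma adjusted p = 0.0709 and 0.0586). With array weights Gna11 was called against both (adjusted p = 0.0283 and 0.0218), as it was among genes measured on all arrays (adjusted p = 0.0446 and 0.0358). A call was also gained without control ODN replicate 1 (-0.98, adjusted p = 0.0227) or, against medium, without medium replicate 2 (-0.94, adjusted p = 0.0364). Without control ODN replicate 3 the limma adjusted p against control ODN was 0.266. Without medium replicate 3 that against medium was 0.300.

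Gnai2, the main inhibitory-class alpha subunit of lymphocytes, was at -0.24, 0.05 and -0.04 with CpG ODN at 8 h and -0.31, 0.09 and 1.09 with control ODN, overlapping groups with a difference of -0.36 ± 0.31 (limma adjusted p = 0.558). Among beta subunits Gnb5 differed from control ODN by 0.53 ± 0.26 and Gnb3 by 0.50 ± 0.27, uncalled and with overlapping groups (adjusted p = 0.224 and 0.299). Gng11 differed by -0.46 ± 0.37 from control ODN (adjusted p = 0.522) and by -1.09 ± 0.37 from medium (an adjusted p at 0.05 and not below it, so not called), and without medium replicate 1 by -1.57 (adjusted p = 3.37e-03). Without medium replicate 2 the limma adjusted p of Gng11 against medium was 0.326. Over the alternatives this difference ran from -1.57 to -0.65. Gng4 differed from control ODN by 0.37 ± 0.34 (adjusted p = 0.585), and Gnat1, the alpha subunit of rod photoreceptors, by -0.52 ± 0.28 (adjusted p = 0.279).

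The difference between CpG ODN and control ODN itself changed with time for 4 of 85 members from 2 h to 8 h (4.71%), 2 towards higher and 2 towards lower, against 3.26% of all genes, 2.13% and 1.13%. It changed by -1.27 ± 0.28 for Gpr137b (limma adjusted p = 6.31e-03), by 2.20 ± 0.51 for Gpr31b (adjusted p = 0.0111), by -1.55 ± 0.40 for Rgs2 (adjusted p = 0.0248) and by 1.20 ± 0.34 for Gpr65 (adjusted p = 0.0474). Gpr31b had values on only 2 of 4 CpG ODN arrays at 2 h. Leaving out 1 of the 14 arrays ended the Gpr65 call in 12 cases and the Rgs2 call in 6, with a highest adjusted p of 0.119 without control ODN 8 h replicate 3 and 0.115 without CpG ODN 8 h replicate 2. The Gpr137b call was kept in all 14, and that of Gpr31b in the 12 that left enough arrays to test. From 4 h to 8 h 1 of 85 members was called (1.18%), against 2.08% of all genes, of which 1.25% towards higher and 0.835% towards lower. This was Gpr137b again, by -1.12 ± 0.28 (adjusted p = 0.0310), a call lost in 8 of 14 such cases (highest adjusted p = 0.111, without CpG ODN 8 h replicate 3).

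**Figure D3:**
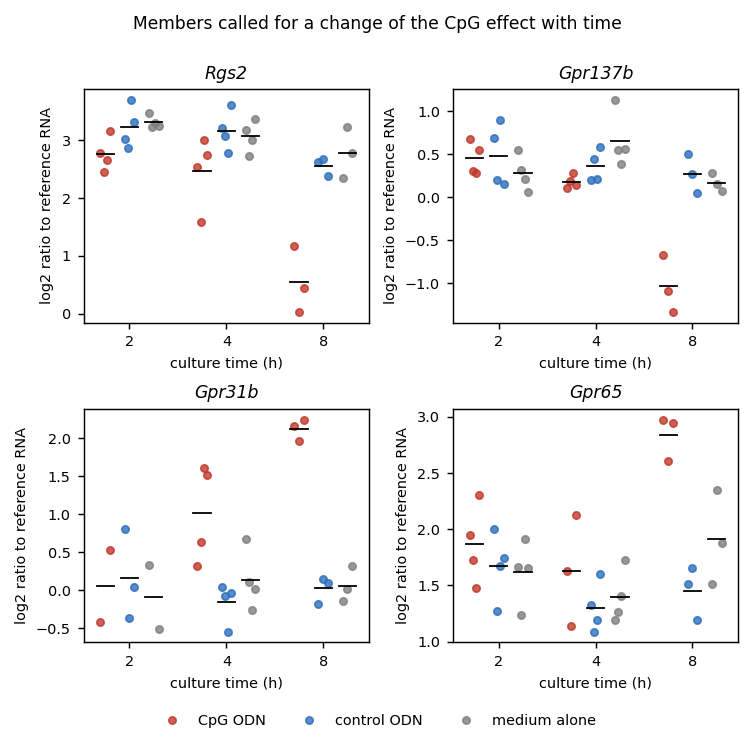
Log2 ratio to the reference RNA by culture time (h) for the 4 members whose difference between CpG ODN and control ODN changed from 2 h to 8 h, with a point per array and a bar at the group mean, CpG ODN left, control ODN middle, medium alone right. Rgs2 and Gpr137b with CpG ODN drop below the controls at 8 h, and Gpr31b and Gpr65 lie above them.

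Between 2 h and 8 h of culture, members of every role changed in 1 or more of the treatments. In medium, 11 of 84 members were called at 8 h against 2 h (13.1%), 7 higher and 4 lower, where 14.6% of all genes were called, 9.26% higher and 5.30% lower. With control ODN 8 of 85 were called (9.41%), 7 higher and 1 lower, against 10.1% of all genes, 7.61% higher and 2.48% lower. With CpG ODN 12 of 85 were called (14.1%), 5 higher and 7 lower, against 16.6% of all genes, 8.45% higher and 8.13% lower. Called in both medium and control ODN were 6 members, Rgs11, Ccr4, Gnb4, Gna11, Rgs3 and P2rx1, all higher at 8 h, without a matching count over all genes. With CpG ODN, Gnb4 and Rgs3 among these 6 were called too. These time comparisons share their 8 h arrays with the treatment comparisons above. Rgs3, P2rx1, Gna13 and Gnb2 are named after their values were seen.

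Rgs11 in medium was at 0.65, 1.27 and 1.17 at 8 h, against -0.63, -1.25, -0.85 and -0.94 at 2 h, with no overlap. Its 8 h minus 2 h difference was 1.95 ± 0.21 in medium (limma adjusted p = 6.50e-07), 1.22 ± 0.21 with control ODN (adjusted p = 2.49e-04) and 0.28 ± 0.21 with CpG ODN (adjusted p = 0.424). Ccr4 differed by 1.36 ± 0.21 in medium and 1.23 ± 0.20 with control ODN (adjusted p = 9.57e-05 and 1.31e-04). Gnb4, a beta subunit, was at 0.39, -0.26 and 0.55 in medium at 8 h, against -1.06, -1.38, -0.80 and -0.97 at 2 h. Its differences were 1.28 ± 0.23 in medium, 1.27 ± 0.23 with control ODN and 0.72 ± 0.23 with CpG ODN (adjusted p = 2.50e-04, 2.86e-04 and 0.0252), the last lost without CpG ODN 8 h replicate 1 or 3 or 2 h replicate 4 (adjusted p of 0.0691 to 0.0996).

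Gna11 differed between 8 h and 2 h by 1.16 ± 0.24 in medium and 1.13 ± 0.24 with control ODN (limma adjusted p = 1.38e-03 and 2.09e-03), and P2rx1 by 0.79 ± 0.24 and 1.11 ± 0.22 (adjusted p = 0.0243 and 1.19e-03). The P2rx1 call in medium was lost without medium 8 h replicate 1 or 3 or 2 h replicate 2 (adjusted p of 0.0652 to 0.111). Rgs3 differed by 1.26 ± 0.31 in medium and 1.62 ± 0.31 with control ODN (adjusted p = 6.62e-03 and 7.53e-04), and the first call was lost without medium 8 h replicate 3 (0.89, adjusted p = 0.0925). With CpG ODN the Rgs3 difference was 0.97 ± 0.31 (adjusted p = 0.0322), lost without CpG ODN 8 h replicate 1 or 3 or 2 h replicate 4 (0.68 to 1.01, adjusted p of 0.0554 to 0.248).

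The falls with time in medium were of subunits and of Ptger4. Gnai2 was at 0.18, -1.45 and -0.09 at 8 h, against 1.13, 0.96, 0.88 and 0.93 at 2 h, without overlap. The Gnai2 difference was -1.43 ± 0.29 (limma adjusted p = 1.08e-03), and without medium 8 h replicate 2, the lowest array, -0.93 (adjusted p = 0.0245). Gna13, an alpha subunit, and Gnb2, a beta subunit, rested on the same array, at -1.40 ± 0.41 and -0.88 ± 0.28 with all arrays (adjusted p = 0.02 and 0.0318) and at -0.70 and -0.47 without it (adjusted p = 0.275 and 0.321). Gna13 lost its call also without medium 2 h replicate 2 (adjusted p = 0.0603), and Gnb2 without 5 of the 7 arrays. Ptger4 differed by -1.10 (adjusted p = 0.0462) and lost its call without 4 of the 7 (highest adjusted p = 0.192).

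**Figure D4:**
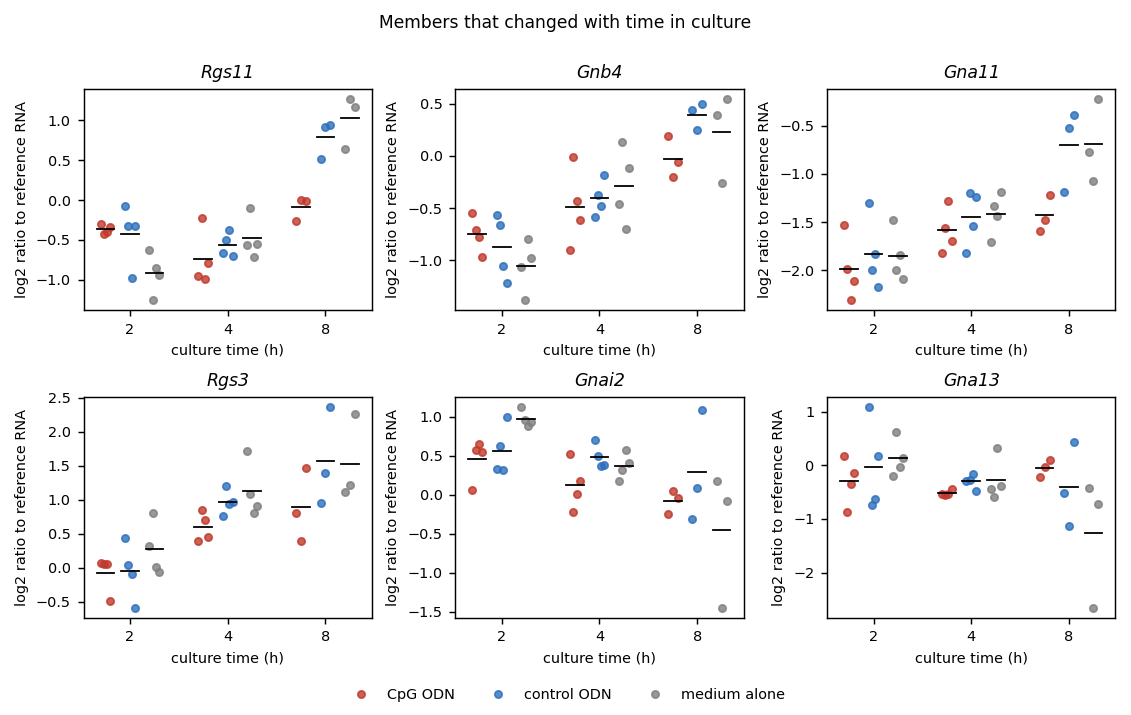
Log2 ratio to the reference RNA by culture time (h) for 6 members called between 8 h and 2 h in medium, with a point per array and a bar at the group mean, CpG ODN left, control ODN middle, medium alone right. Rgs11, Gnb4, Gna11 and Rgs3 lie higher at 8 h than at 2 h in both controls, and 1 medium array at 8 h lies far below the others for Gnai2 and Gna13.

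Other genes of the same pathways are given for CpG ODN against control ODN at 8 h, where 4.55% of all genes were called higher and 5.45% lower. Their lists were chosen with earlier results of these data known. Of 26 chemokine ligands 4 were higher and 0 lower, with Cxcl10 at 4.96 ± 0.26 (limma adjusted p = 5.25e-14), Cxcl11 at 4.68 ± 0.21 (adjusted p = 9.45e-16), Cxcl9 at 2.81 ± 0.27 (adjusted p = 8.51e-09) and Ccl3 at 2.04 ± 0.26 (adjusted p = 1.29e-06). The list median was -0.003. Cxcl9, Cxcl10 and Cxcl11 are the ligands of Cxcr3, whose own level was not called.

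Of 27 other chemoattractant and lipid receptors 0 were higher and 2 lower at 8 h, the cannabinoid receptor Cnr2 (-1.02 ± 0.19, limma adjusted p = 4.62e-04) and the complement receptor C3ar1 (-1.06 ± 0.25, adjusted p = 4.86e-03), with a median of -0.19. Of 7 receptor kinases and arrestins 1 was lower, Arrb1, an arrestin that uncouples receptors (-1.11 ± 0.30, adjusted p = 0.0132), with a median of -0.54. Of 18 genes of the cyclic AMP pathway 1 was higher, the adenylyl cyclase Adcy3 (2.71 ± 0.28, adjusted p = 4.08e-08), and 2 were lower, the phosphodiesterase Pde7a (-0.77 ± 0.23) and the kinase subunit Prkar2a (-0.73 ± 0.23), with a median of -0.03. Of 11 genes of the phospholipase C and phosphoinositide 3-kinase gamma arm 3 were lower, Rasgrp2, Dgka and Prkcd (-1.64 ± 0.36, -0.98 ± 0.24 and -0.79 ± 0.20), with a median of -0.48. Against medium 2 of these 11 were lower, Prkcd (-0.77 ± 0.20) and Plcb4 (-1.22 ± 0.34), and Rasgrp2 and Dgka were not called. Of 6 other G protein regulators the limma test called 0, and 1 had an unadjusted p under 0.05. Against medium 2 of the 6 were called, Axin1 higher (1.23 ± 0.37, adjusted p = 0.0276) and Pdcl lower (-0.73 ± 0.22, adjusted p = 0.0289). Against medium the chemokine ligands gave 4 higher and 0 lower of 26, the other chemoattractant and lipid receptors 0 and 4 of 26, the receptor kinases and arrestins 0 and 2 of 6, and the cyclic AMP pathway 1 and 1 of 18, beside 5.66% of all genes called higher and 6.11% lower. Axin1, Pdcl and Plcb4 are named after their values were seen.

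Some markers of cell types were also lower with CpG ODN at 8 h. Of 14 B cell markers tested 2 were lower against control ODN, Cd79b and Cr2, and of 12 T cell markers 4 were lower, Cd3e, Cd3g, Cd5 and Lat, with 0 higher in either list, beside 5.45% of all genes called lower. Against medium 2 of 14 B cell markers and 1 of 12 T cell markers were lower, beside 6.11% of all genes. The median difference from control ODN was -0.46 over the B cell markers, -0.57 over the T cell markers, -0.70 over the monocyte and macrophage markers and -0.63 over the neutrophil markers. It was 0.17 over the NK cell markers, -0.305 over the dendritic cell markers and -0.12 over all genes. Against medium the median was -0.065 over the B cell markers, -0.40 over the T cell markers and -0.67 over the monocyte and macrophage markers. There it was -0.62 over the neutrophil markers, 0.18 over the NK cell markers and -0.13 over all genes. The summed level of 12 B cell markers ran from 14.85 to 17.42 with CpG ODN, 20.83 to 24.27 with control ODN and 17.56 to 23.95 with medium. That of 8 T cell markers ran from 8.63 to 11.5 with CpG ODN, 14.33 to 16.02 with control ODN and 11.43 to 16.94 with medium. Of 12 monocyte and macrophage markers 1 was higher and 2 were lower, and 11 of them summed to between 2.01 and 6.94 with CpG ODN, 6.86 and 13.23 with control ODN and 6.36 and 10.48 with medium. The limma test called 0 of 7 NK cell markers, 0 of 5 dendritic cell markers and 0 of 10 neutrophil markers, with 1, 0 and 1 at an unadjusted p under 0.05. It called 1 of 7 erythroid markers lower, and 1 of 6 platelet markers higher and 1 lower. In a mixture of cells, fewer cells of a type and less RNA per cell cannot be told apart, and the part of these markers in the falls of Cxcr4, S1pr1, P2ry10, Ccr4 and Rgs14 was not tested.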

How the data were processed

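The study measured RNA of cultured spleen cells on 33 two-colour arrays. The deposited table holds 1 log ratio for each probe on each array. It was read as a log2 ratio of Cy5 (spleen cells) over Cy3 (reference RNA), dyes per the labels. The log base is not stated and was read from the range of the values (-6.51 to 8.54). What background correction, spot filters and normalization the authors used before deposit is not given in the sources used here. No dye was swapped, so a gene's dye effect is part of each level and drops out of differences.

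Of 16720 probes, 11303 had a value. The platform annotation gives 14656 probes 1 symbol, 6 several and 2058 none, and only probes of 1 symbol entered. Among probes of 1 gene, the one with the fewest missing values was used. Each array was centred on its median, and means of all 9 groups were fitted together per gene with limma 3.58.1 in R 4.3.3 (moderated variances, Benjamini-Hochberg over all genes tested, at least 2 arrays per compared group). Errors of differences are standard errors (SE) from that fit, and the number of arrays limits the precision. The fit was checked against lmFit and tested on simulated data.

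The members, gene lists and tests were chosen with earlier results of these data known. Genes named are the members called in a treatment comparison or a change over time, those with the smallest p in families with fewer than 2 such members, up to 4 called with time in medium, and up to 4 called genes per pathway list. Results of 1 further list are not reported here. Alternatives were quantile normalization, no centring, genes measured on all arrays, at least 1 array per group, fits of the compared groups alone, array weights, the repeat number as a block, no early arrays (4 arrays with low experiment numbers), the mean of all probes of a gene, and each array left out.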

Additional observations from a re-analysis of the deposited data

Results flagged for a closer look

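The difference between CpG ODN and control ODN differed between times for 4 members. From 2 h to 8 h it changed by -1.27 for Gpr137b, 2.20 for Gpr31b, 1.20 for Gpr65 and -1.55 for Rgs2, and from 4 h to 8 h by -1.12 for Gpr137b, each by the limma test of the change itself. The number of arrays differs between times, 3 per group at 8 h and 4 before.

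Gng4, a gamma subunit, was at 0.58 on medium 2 h replicate 2, while the other medium arrays at 2 h were at 1.18, 1.22 and 1.26. This array lay far from the others of its group. It was the 1 such case in 140 groups of 4 arrays examined over 28 members, where chance gives about 1 in 20.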

How the results depend on the processing

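The calls of Rgs2, Gpr137b and Gpr31b at 8 h held against both controls under every alternative run, as did those of S1pr1 and Gpr65 against control ODN, and no call reversed. With quantile normalization the count against control ODN at 8 h was 6 and with genes measured on all arrays, where only 35 members remain, 6, in place of 11, and Rgs11 lost its call with quantile normalization (adjusted p = 0.0579). Members with a positive difference from control ODN numbered 31 of 85 with quantile normalization and 21 with median centring, and the median of all genes was -0.05 in place of -0.12. Where the fit held the compared groups alone, the count against medium at 8 h was 4, that of the change from 2 h to 8 h 2, that of the change from 4 h to 8 h 0 and that of medium 8 h against 2 h 5. Array weights gave 2 members for CpG ODN against control ODN at 4 h, 4 for the change from 4 h to 8 h and 23 for CpG ODN 8 h against 2 h. Counts under alternatives are given without the share of all genes called in the same setting. They therefore do not set members apart from other genes. The change from 4 h to 8 h gave 0 with quantile normalization and 2 with genes measured on all arrays, and the change from 2 h to 8 h gave 1 without the early arrays. Array weights also called Gpr180 against control ODN at 8 h (adjusted p = 0.0189) and Cxcr4 against medium (adjusted p = 0.0388). P2ry10 lost both calls with quantile normalization and with the compared groups alone (adjusted p of 0.172 to 0.200). Ccr4 lost its calls in both settings too (adjusted p of 0.0701 to 0.292). Quantile normalization ended the calls of P2ry14 against control ODN (adjusted p = 0.0776) and of Gpr3 and Rgs18 against medium (adjusted p = 0.148 and 0.149). With the compared groups alone P2ry14 lost both calls (adjusted p = 0.0589 and 0.0865). Against medium Gpr65, Gpr180, Gpr155, Gpr3 and Rgs18 lost theirs there (adjusted p of 0.104 to 0.168). The cause of these shifts was not tested. Some of the settings use fewer genes or arrays.

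Leaving out 1 array at a time gave 0 to 1 members for CpG ODN against control ODN at 4 h, 7 to 10 at 8 h, 6 to 14 for CpG ODN against medium at 8 h, 2 to 4 for the change from 2 h to 8 h, 0 to 3 for the change from 4 h to 8 h, and 5 to 13, 6 to 10 and 8 to 14 for 8 h against 2 h with CpG ODN, control ODN and medium. At 8 h the lowest counts against both controls came without CpG ODN replicate 2 and, equally, replicate 3. Leaving out medium replicate 2 gave 8 calls against medium at 8 h. For CpG ODN 8 h against 2 h the lowest came without CpG ODN 8 h replicate 3. The change from 2 h to 8 h gave 2 without control ODN 8 h replicate 1 or 2 or CpG ODN 8 h replicate 3. The share of all genes called without each array is not given, so these counts do not set members apart from other genes.

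Repeat numbers were shared between groups. Deviations of same-numbered arrays correlated above 0.1 in 7 of 12 pairs at 2 h, 8 of 12 at 4 h and 6 of 9 at 8 h. The highest values were 0.736, 0.699 and 0.653 and the lowest -0.184, -0.412 and -0.085. As not every pair lay above 0.1, the main fit did not pair the samples, but a pairing was not excluded. The 3 pairs of control ODN and medium at 8 h all lay above 0.1 (0.484, 0.653 and 0.645), and a replicate block within each time called 0 members there too. With a replicate block within each time, 15 members were called against control ODN and 18 against medium at 8 h, 8 for the change from 2 h to 8 h and 2 for that from 4 h to 8 h. A replicate block shared across times gave 11, 16, 4 and 1. For these block counts too, the share of all genes called in the same setting is not given. The block within each time also called Gna11 against control ODN and medium (adjusted p = 8.46e-03 and 6.84e-03), S1pr2 against control ODN (adjusted p = 0.0467), and S1pr1, Cxcr3 and Gng11 against medium (adjusted p = 0.0258, 0.0442 and 0.0193). The comparisons of 8 h with 2 h could not be estimated with the block within each time.

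Depth cannot be judged beyond the number of probes with a value, so that missing values limit members such as Ccr6, Ccr8, Gpr146 and Rgs14. A second probe of Rgs3 gave -0.22 at 8 h against control ODN, where the probe used gave -0.68. Rgs3 was called for 8 h against 2 h, and the second probe is not given for that comparison.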
